A study of Mus musculus with 4 samples.

Results

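The cells described here were 932 cells of KLF2 liver tumours that carried unusually many transcripts of very long genes of neural adhesion and synapse proteins. They were chosen by a rule on 18 genes. A cell needed at least 20 UMIs (unique molecular identifiers, 1 per captured RNA molecule) of Cntn4, Lsamp, Grik1, Sgcd, Unc5c, Nav3, Grm8 and Tenm2 together per 10000 of its UMIs, with at least 4 of these 8 genes detected. It also needed less than 20 per 10000 of Car3, Fxyd6 and Prss56, less than 10 of Krt7 and Krt19, less than 5 of Ibsp and Serpinf1, and 0 UMIs of Ptprc, Cdh5 and C1qa, the genes of leukocytes, endothelium and macrophages. Of 6209 kept cells of KLF2 replicate 1, 384 met the rule (6.18%, exact 95% interval 5.60 to 6.81%), and of 11103 kept cells of KLF2 replicate 2, 548 did (4.94%, 4.54 to 5.35%). None of the 8403 kept cells of Vector replicate 2 did, which allows a share of up to 0.0357% (3 counts, counting error only). The labels and headers do not state if reads in introns were handled alike in the KLF2 and Vector libraries, and the 0 holds for the counts as deposited. In all, 932 of 25715 kept cells were selected.

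The KLF2 group was male C57BL/6 mice injected through the tail vein, under pressure, at 8 weeks of age with Sleeping Beauty plasmids for c-MYC, AKT and KLF2 and with the transposase SB100X. The Vector group received the same c-MYC, AKT and transposase plasmids with an empty pT3 vector in place of KLF2, so both groups carried the 2 oncogenes. The EF1α promoter of the plasmids is active in any cell that takes them up, not in 1 liver cell type. Tumours were taken 10 weeks after injection, at 18 weeks of age, and digested for 30 min, and each of the 2 mice per group gave 1 droplet library. Vector replicate 1 was not analysed here beyond its gene list, so the Vector group is 1 library.

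Contactins, IgLON proteins and teneurins are surface proteins through which neurons and their partners recognise each other. Their genes are among the longest of the mammalian genome, and nearly all of that length is intron, which is transcribed and then removed in the nucleus. RNA still in the nucleus therefore holds many reads from long introns and the nuclear RNA Malat1, while cytoplasmic RNA is rich in messages of ribosomal proteins. Hepatocytes and biliary cells are not known for this group of genes.

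The 8 genes that set the sum are all protein-coding, and each spans more than 200 kb. In GRCm38 with the GENCODE annotation, Cntn4, a contactin, lies on chromosome 6 between 105677660 and 106699310 on the plus strand. Lsamp, an IgLON protein, lies on chromosome 16 between 39984361 and 42181679 on the plus strand. Tenm2, a teneurin, lies on chromosome 11 between 36006656 and 37235964 on the minus strand. Sgcd, the delta subunit of the sarcoglycan complex of muscle membranes, lies on the same chromosome between 46896253 and 47988969 on the minus strand. Grik1, a kainate-type glutamate receptor subunit, lies on chromosome 16 between 87895900 and 88290265 on the minus strand. Their spans ran between 370 kb for Unc5c, a netrin receptor, and 2197 kb for Lsamp, and positions outside every annotated exon made up 94.8% of the span of Unc5c and 98.04% or more of the other 7. Lsamp, Unc5c, Nav3, a microtubule-binding neuron navigator, Grm8, a metabotropic glutamate receptor, and Tenm2 overlap other annotated genes, and the strand handling of the counting is not given in the sources used here.

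Because these genes chose the cells, their levels are a description. Cntn4 had 1164 and 1087 UMIs per 1000000 UMIs of a group of cells (CPM) in the selected cells of KLF2 replicates 1 and 2, against 76.5 and 77.9 CPM in the remaining cells, those that met neither this rule nor the Car3, keratin or Ibsp thresholds. Lsamp had 1142 and 1057 CPM in selected cells, against 70.0 and 60.6 CPM in remaining cells. Tenm2 had 775 and 999 CPM in selected cells, against 58.1 and 92.2 CPM in remaining cells. The 2 libraries gave similar levels. Each of the 8 genes was higher in selected than in remaining cells, which largely follows from choosing cells on their sum. Single cells overlapped: Grm8 was detected in 54.4% and 60.9% of selected cells and in 15.8% and 13.3% of remaining cells. Grm8 showed the widest ratio of levels, 19.7 and 21.3 times the remaining level, while the ratios of Sgcd were 9.94 and 11.6 and those of Tenm2 13.3 and 10.8.

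**Figure D1:**
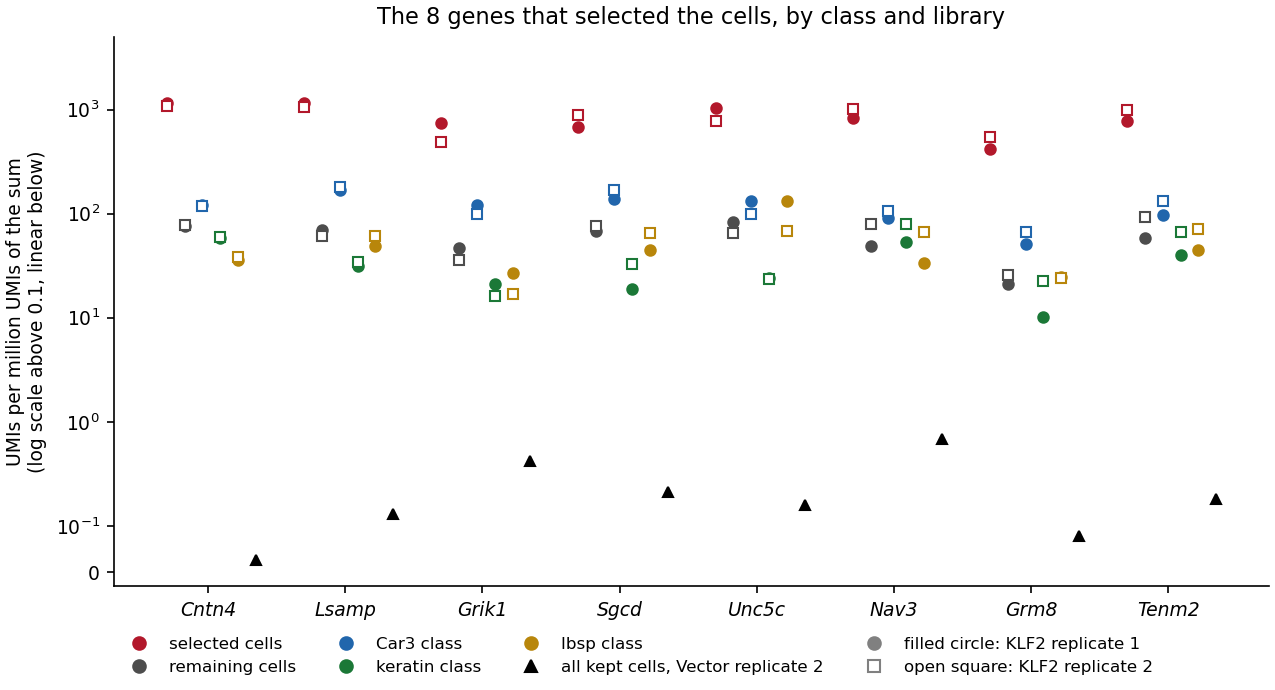
Level of each of the 8 genes that chose the cells, in CPM on a log scale (linear below 0.1), for 5 classes of cells in KLF2 replicates 1 (filled) and 2 (open) and for all kept cells of Vector replicate 2 (triangles). Selected cells lie above every other class for every gene, and the Vector library lies below 1 CPM for all 8. The rule set the sum of the 8 genes and the number detected in selected cells, so these levels are a description. It set no limit on that sum in the Car3, keratin and Ibsp classes.

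The other KLF2 cells were not empty of these transcripts. Summed over the 8 genes, remaining cells had 473 and 511 CPM and the cells past the Car3 threshold 922 and 970 CPM, while the keratin class had 257 and 335 CPM and the Ibsp class 392 and 411 CPM. Cells with a UMI of Ptprc and none of Cdh5, a leukocyte class not known for these genes, had 538 and 512 CPM, and how much of the level in remaining cells is free RNA was not tested. Cntn4 was detected in 87.2% and 81.6% of selected cells, in 37.2% and 28.6% of remaining cells and in 28.9% and 24.8% of Ptprc-positive cells, at medians of 5067.5 and 4247, 7739 and 3819, and 9917 and 6270.5 UMIs per cell. With every cell thinned to 1000 UMIs, Cntn4 was found in 53.1% and 54.01% of selected cells, against 8.83% and 8.93% of remaining cells.

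Vector replicate 2 held 72 UMIs of the 8 genes in all its kept cells, 1.88 CPM, against 686 and 717 CPM in all kept cells of the KLF2 libraries. All 8 genes are in the gene lists of all 4 libraries. The Ptprc-positive cells differed between the libraries as well, with 538 and 512 CPM of the 8 genes in the KLF2 libraries and 0.919 CPM in the Vector library. Genes over 200 kb outside the rule took 3.55% and 3.80% of the UMIs of Ptprc-positive cells in the KLF2 libraries and 0.783% in the Vector library. The Vector library also differed in a median mitochondrial share of 13.7% in its remaining cells, against 0.220% and 0.366% in the KLF2 libraries. With 1 Vector library, KLF2 and the library cannot be told apart as sources of the missing cells.

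The selected cells formed no separate group on the 8-gene sum. Just inside the threshold, at a sum of 20 to under 25 with 4 or more genes, lay 73 and 50 cells with a median Malat1 share of 0.811% and 0.796%. Just outside, at 15 to under 20 with any number of genes, lay 185 and 245 cells with 0.782% and 1.19%. The 2 sets are unlike in depth: medians were 7282 and 6848 UMIs and 6 and 6 genes inside, against 5586 and 2027 UMIs and 4 and 2 genes outside. A further 88 and 236 cells reached the sum with under 4 of the 8 genes, at a low median depth of 1644.5 and 1491.5 UMIs. Among selected cells, all 8 genes were detected in 80 of 384 and 134 of 548, and exactly 4 in 57 and 106. The highest sum was 595 per 10000 in KLF2 replicate 1 and 583 in KLF2 replicate 2.

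Malat1 and long genes took more of a selected cell's UMIs, and ribosomal protein messages less. Malat1, the nuclear speckle RNA, took a median of 1.37% and 1.46% of a selected cell's UMIs, against 0.200% and 0.527% in remaining cells. Ribosomal protein messages took a median of 6.62% and 8.26% in selected cells, against 19.7% and 15.6% in remaining cells. Genes over 200 kb outside the rule took a median of 10.5% and 10.3% in selected cells, against 3.93% and 5.03% in remaining cells. All 3 shares differed the same way in both libraries, but the quartiles of Malat1 overlapped in both, at 0.732 to 2.46% against 0.0688 to 0.776% in KLF2 replicate 1 and 0.827 to 2.31% against 0.155 to 1.28% in KLF2 replicate 2. Whether reads in introns were counted is not given in the sources used here, and the deposited counts per gene do not separate introns from exons, so "intron-rich" in the working name was not measured.

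**Figure D2:**
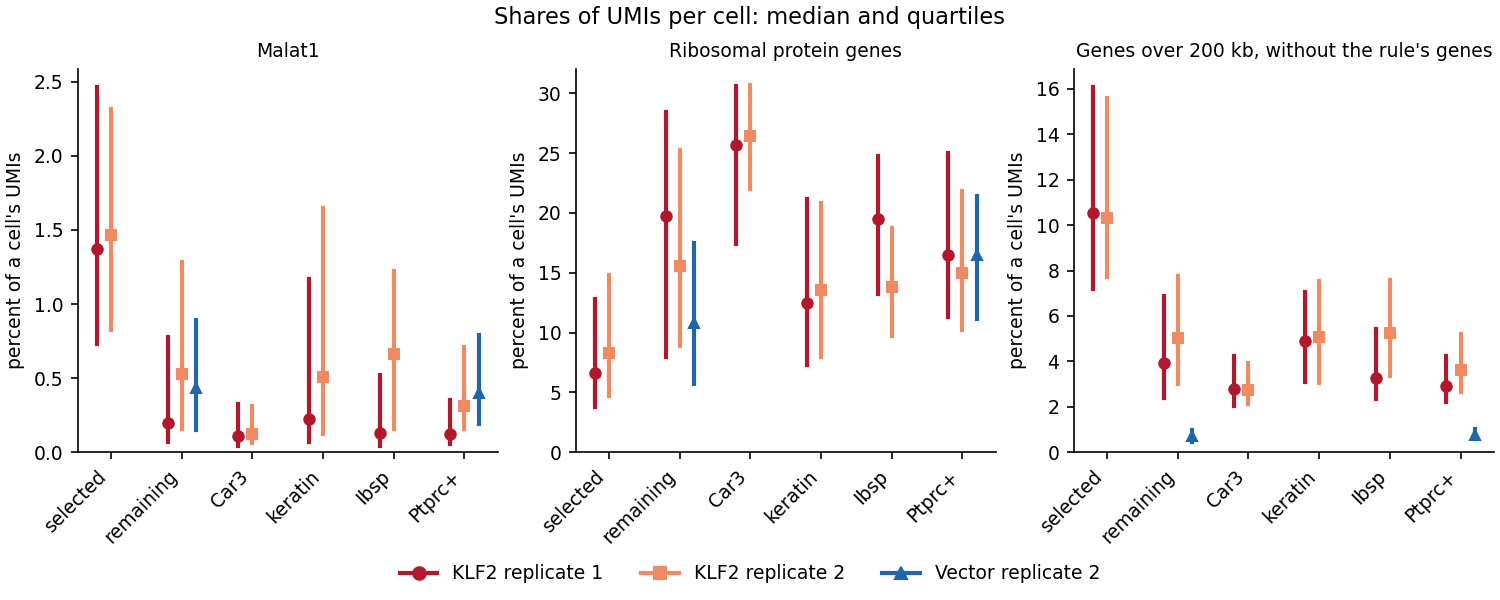
Median (marker) and quartiles (bar) of the percent of a cell's UMIs in Malat1, in ribosomal protein genes and in genes over 200 kb outside the rule, by class of cells and library, for classes of at least 50 cells. Selected cells have the highest Malat1 and long-gene medians and the lowest ribosomal protein medians of the KLF2 classes, and both Vector classes lie below 1% in long genes.

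These shares changed over bins of the 8-gene sum, without a step at 20. Between cells with a sum over 0 and under 5 and cells with 80 or more, the median Malat1 share was 0.102% and 2.15% in KLF2 replicate 1, and 0.186% and 1.66% in KLF2 replicate 2. Over the same bins the median ribosomal protein share was 24.4% and 3.53% in KLF2 replicate 1, and 21.3% and 5.66% in KLF2 replicate 2. Cells at 10 to under 20, below the threshold, lay between these ends. Cells with a sum of 0 did not extend the trend: their medians were 0.165% and 0.580% for Malat1 and 19.3% and 15.3% for ribosomal proteins. Depth moved with the bins, with medians of 12667 and 9596.5 UMIs over 0 to under 5, 4059 and 2974 UMIs at 80 or more, and 3668 and 1988 UMIs at 0, and its part in the trend was not tested. The deepest 128 and 183 selected cells of the 2 libraries had ribosomal protein medians of 9.95% and 12.7%, above the 6.31% and 8.21% of the shallowest 128 and 183.

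**Figure D3:**
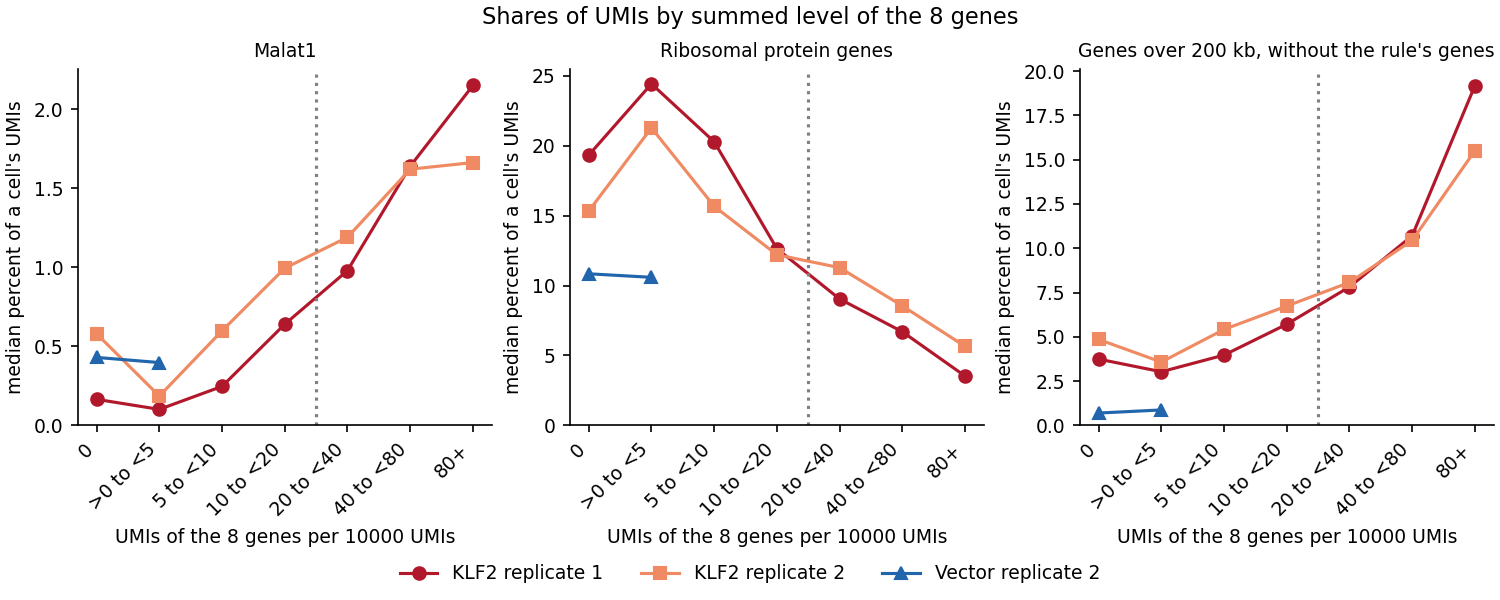
Median percent of UMIs in Malat1, ribosomal protein genes and genes over 200 kb outside the rule, for cells binned by the UMIs of the 8 genes per 10000, with the threshold of 20 dotted, in KLF2 replicates 1 and 2 and Vector replicate 2. In the KLF2 libraries Malat1 and long genes climb and ribosomal proteins drop from the second bin upward, without a step at the threshold, and the Vector library is plotted for its 2 lowest bins, which hold 3321 and 18 of its 3348 cells (bins under 10 cells are left out).

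Genes outside the rule were then compared between selected and remaining cells, on UMIs summed per library, with edgeR's quasi-likelihood test and the mouse as a block (n = 2 mice; 4 residual degrees of freedom from 5 classes). The cells came from a rule on long genes of these same libraries, so higher levels of other long genes are not independent of how the cells were found. Of 15289 genes tested, 3511 were higher (23.0%) and 3606 lower (23.6%) at an adjusted p under 0.05. With total UMIs alone as the scale the split was 5409 higher and 2022 lower, since the median of all genes moved by 0.39 on the log2 scale. Of the called genes, 3506 of those higher and 3601 of those lower kept the direction in each of the 2 libraries.

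The direction followed the length of the gene. Of 875 genes over 200 kb, 603 were higher and 12 lower, with a median log2 fold change of 1.30. Of 3922 genes of 10 kb or less, 224 were higher and 1825 lower, with a median of -0.74. Genes of 50 to 200 kb had a median of 0.64 and those of 10 to 50 kb a median of -0.13. With all genes split by mean CPM into 3 equal parts, 59 of 217, 144 of 228 and 400 of 430 genes over 200 kb were higher in the low, middle and high part. In the same parts 257 of 1729, 608 of 1079 and 960 of 1114 genes of 10 kb or less were lower.

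Some genes went against their length. Hist1h4f and Hist1h4c, intronless histone H4 genes so alike that their reads may not be separable, were named after their values were seen. Hist1h4f had 26.4 and 34.8 CPM in selected cells, against 2.32 and 3.59 CPM in remaining cells (log2 fold change 3.0 ± 0.29 SE, edgeR adjusted p = 1.2e-05). Hist1h4c had 35.2 and 64.8 CPM in selected cells, against 9.46 and 19.4 CPM in remaining cells (1.42 ± 0.17, edgeR adjusted p = 4.4e-05). Of 47 tested Hist1 genes, replication histones whose mature messages have no poly(A) tail, 18 were higher and 3 lower. Against the Malat1-rich remaining cells described next, 1 of 45 was higher and none lower. Hist1h4f was still higher there (2.31 ± 0.43, edgeR adjusted p = 0.0033), and Hist1h4c differed by 0.41 (edgeR adjusted p = 0.24). Mat2a, a methionine adenosyltransferase whose transcript is known to keep an intron in the nucleus, was also higher and was likewise picked after the fact, at 186 and 267 CPM in selected cells against 83.9 and 102 CPM in remaining cells (0.89 ± 0.13, edgeR adjusted p = 0.00015; 0.11 with an adjusted p of 0.65 against Malat1-rich cells). Among long genes that fell, also picked after the fact, Kalrn, a guanine nucleotide exchange factor, had 34.1 and 33.0 CPM in selected cells against 45.2 and 38.1 CPM in remaining cells (-0.69 ± 0.13, edgeR adjusted p = 0.0013). Ryr3, an intracellular calcium channel, had 14.4 and 16.3 CPM in selected cells against 31.0 and 22.8 CPM in remaining cells (-1.17 ± 0.18, edgeR adjusted p = 0.00027). Of 664 long non-coding genes of 10 kb or less, 139 were higher (20.9%, near the 23.0% of all genes) and 60 lower, and of 3248 protein-coding genes of that length 85 were higher and 1757 lower.

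The high Malat1 of the selected cells allowed a second comparison, against the 447 and 862 remaining cells whose Malat1 share was at or above the selected cells' median. All of these comparison cells lay at or above that median, while selected cells lay on both sides of it. The groups were therefore not matched on Malat1, and the comparison is not like for like. These Malat1-rich remaining cells had a median long-gene share of 8.56% and 8.42% and a median ribosomal protein share of 5.66% and 7.69%, at medians of 4412 and 2847.5 UMIs. Against them the length trend in the medians was gone, at -0.08 over 856 genes over 200 kb and 0.00 over 3458 genes of 10 kb or less. Genes over 200 kb still differed more often than all genes, with 158 higher (18.5%) and 152 lower (17.8%). Of 14242 genes tested, 1370 were higher (9.62%) and 1533 lower (10.8%), and 534 of the higher and 414 of the lower genes had the same call against all remaining cells. The Malat1-rich remaining cells had a median 8-gene sum of 6.16 and 6.46 per 10000, below the 44.6 and 59.0 of the selected cells, which the rule itself separates. Ribosomal protein genes turned direction between the comparisons: all 80 tested were lower against all remaining cells, and 73 of 80 were higher against the Malat1-rich ones.

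**Figure D4:**
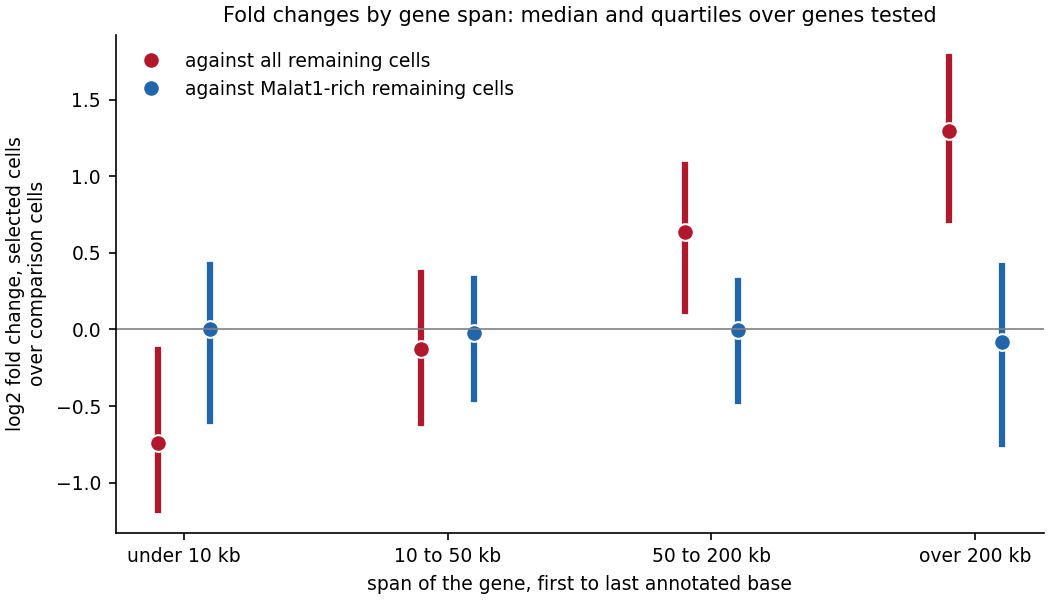
Median (point) and quartiles (bar) over genes of the log2 fold change of selected cells over all remaining cells (red) and over Malat1-rich remaining cells (blue), by span of the gene. The red medians climb with span, to 1.30 over 200 kb, and the blue medians stay within 0.1 of 0 in every class.

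The 12 genes with the highest fold changes were long genes, with a median span of 671 kb. Kcnd2, a voltage-gated potassium channel subunit, had 325 and 102 CPM in selected cells, against 14.0 and 5.39 CPM in remaining cells (log2 fold change 4.02 ± 0.24, edgeR adjusted p = 8.8e-07). Inpp4b, a phosphatase that acts against PI3K and AKT signalling, had 599 and 865 CPM in selected cells, against 38.2 and 81.8 CPM in remaining cells (3.29 ± 0.18, edgeR adjusted p = 4.5e-07). Negr1, an IgLON relative of Lsamp, had 228 and 303 CPM in selected cells, against 17.6 and 27.7 CPM in remaining cells (3.19 ± 0.27, edgeR adjusted p = 6.4e-06). Kcnd2 was higher in KLF2 replicate 1 than in KLF2 replicate 2 in both groups of cells, and selected cells were higher in each mouse. Galntl6, Arhgap6, Ctnna2, Kcnn2, Dlgap2, Enox1, Fat3, Cacna1e and Frmpd4 complete the 12, with log2 fold changes of 3.06 to 3.5. They include the neuronal catenin Ctnna2, the calcium-activated potassium channel Kcnn2, the calcium channel Cacna1e, the atypical cadherin Fat3 and the postsynaptic scaffold genes Dlgap2 and Frmpd4. Of the 12, 10 overlap another annotated gene.

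The 12 were picked for high levels in these selected cells, so further comparisons of the same sums are a description and no independent support. Kcnn2, with 111 and 89.1 CPM in selected against 8.85 and 7.12 CPM in remaining cells, met the mean of 30 CPM through the selected cells. All 12 were higher than in the Malat1-rich cells, a part of the remaining cells, by 1.98 to 3.76 on the log2 scale. They were higher as well than in the Car3 class (1.72 to 3.19), the keratin class (3.77 to 5.16) and the Ibsp class (3.08 to 4.96). In those fits 29.6%, 26.5% and 22.6% of all genes tested were higher in selected cells, and 26.2%, 28.0% and 25.7% lower. Kcnd2, for instance, had 325 and 102 CPM in selected cells, against 47.0 and 16.6 CPM in the Car3 class and 3.84 and 3.87 CPM in the keratin class.

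**Figure D5:**
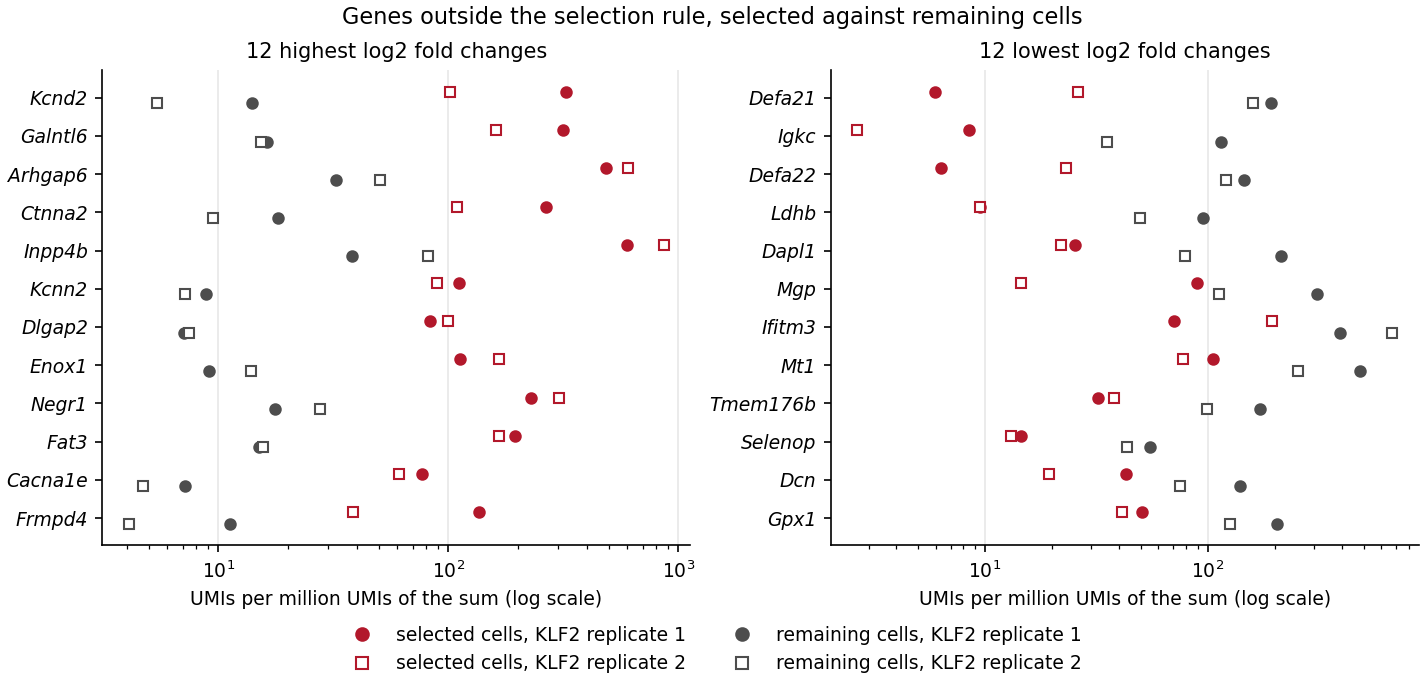
Level of the 12 genes with the highest and the 12 with the lowest log2 fold changes outside the rule, in CPM on a log scale, in selected (red) and remaining (grey) cells of KLF2 replicates 1 (filled) and 2 (open). Within each library every gene of the left panel is higher in selected cells and every gene of the right panel lower.

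The 12 genes with the lowest fold changes were short, with a median span of 2.42 kb and none over 38.5 kb. Defa21 and Defa22 are alpha-defensins, known as antimicrobial peptides of the gut. Defa21 had 5.98 and 26.1 CPM in selected cells, against 192 and 159 CPM in remaining cells (-4.14 ± 0.58, edgeR adjusted p = 0.00013). Defa22, which had 6.33 and 23.2 CPM in selected cells against 146 and 121 CPM in remaining cells, is so similar in sequence that reads of the 2 genes may not be separable. Against the Car3 class, which had 3.14 and 15.4 CPM of Defa21, the difference was 0.37 with an edgeR adjusted p of 0.65. Ldhb, a lactate dehydrogenase subunit, had 9.499 and 9.509 CPM in selected cells, against 95 and 49.5 CPM in remaining cells (-3.24 ± 0.36, edgeR adjusted p = 2.7e-05). Gpx1, the cytosolic glutathione peroxidase, had 50.7 and 41.3 CPM in selected cells, against 203 and 125 CPM in remaining cells (-2.19 ± 0.20, edgeR adjusted p = 9.6e-06). The others were Igkc, an immunoglobulin constant region, Dapl1, the matrix genes Mgp and Dcn, the interferon-induced Ifitm3, the metallothionein Mt1, Tmem176b and the selenoprotein Selenop, with log2 fold changes of -4.06 to -2.20. Taken library by library, in KLF2 replicates 1 and 2, Defa21 was at -5.32 and -3.01, Defa22 at -4.84 and -2.78, Dapl1 at -3.42 and -2.25 and Mgp at -2.15 and -3.34. Of the 12, 6 were lower against Malat1-rich remaining cells too, at -1.83 to -0.80 over all 12, and 5 were lower than in the Car3 class. Both comparisons reuse the selected-cell sums that picked the 12.

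Over 200 kb, 68.9% of all genes tested were higher, and the lists of relatives of the 8 genes are read beside that share. Of 17 tested contactin, IgLON and related immunoglobulin-type adhesion genes, 10 were higher and none lower. The median was 1.05, against -0.04 for all genes tested. Cntn5, a contactin, had 54.5 and 82.6 CPM in selected cells, against 6.05 and 9.06 CPM in remaining cells (2.79 ± 0.16, edgeR adjusted p = 7.0e-07), and Cntnap4, a contactin-associated protein, 31.3 and 29.4 against 2.77 and 3.09 CPM (2.98 ± 0.29). Sdk2, a sidekick adhesion protein, had 385 and 427 CPM in selected cells, against 75.2 and 79.1 CPM in remaining cells. Against Malat1-rich remaining cells, 5 of 16 tested were higher and 1 lower (median -0.33), beside 18.5% and 17.8% of genes over 200 kb. Negr1, Cntnap4, Cntn5 and Sdk2 were among the 5 (1.57 to 2.71).

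Of 14 teneurins, latrophilins, neurexins and their partners, 7 were higher and none lower (median 0.57). Tenm4 had 523 and 617 CPM in selected cells, against 142 and 180 CPM in remaining cells (1.44 ± 0.11, edgeR adjusted p = 3.6e-06), and Lrrtm4, a synaptic leucine-rich repeat protein, had 10.2 and 31.2 against 2.13 and 3.502 CPM. Adgrl3, a latrophilin, was higher against all remaining cells (1.12 ± 0.23, edgeR adjusted p = 0.0020) and lower against Malat1-rich ones (-1.02, edgeR adjusted p = 0.0078). Nrxn3, a neurexin, was higher in the first comparison by 1.84, and its difference in the second was -0.10 (edgeR adjusted p = 0.83). Of 15 cadherins and protocadherins, 7 were higher and none lower (median 0.72), among them Pcdh7 at 620 and 675 CPM in selected cells, against 77.7 and 100.3 CPM in remaining cells (2.48 ± 0.15, edgeR adjusted p = 8.3e-07). Cdh4, Cdh20 and Pcdh15 were other members that rose, with 2.97 to 26.7 CPM in selected cells. Pcdh15 rests on KLF2 replicate 1 (2.30, and 0.29 in KLF2 replicate 2), and Cdh20 was at 3.31 and 1.76.

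Of 24 netrin, slit, semaphorin and ephrin receptor guidance genes, 13 were higher and 1 lower (median 1.00). Robo1, a slit receptor, had 1340.1 and 1424 CPM in selected cells, against 222 and 313 CPM in remaining cells (2.01 ± 0.13, edgeR adjusted p = 1.4e-06). Epha7, an ephrin receptor, had 1283 and 987 CPM in selected cells, against 169 and 162 CPM in remaining cells (2.38 ± 0.14, edgeR adjusted p = 8.3e-07), and was higher than in Malat1-rich remaining cells by 1.82. Slit2 and Unc5d rose by 2.58 and 2.10 against all remaining cells, and the Unc5d difference from Malat1-rich cells was 0.20 (edgeR adjusted p = 0.56). Of 13 glutamate receptor genes, 5 were higher and 1 lower (median 1.25), at low levels: Grid1, a delta-type receptor, had 16.5 and 14.6 CPM in selected cells against 1.97 and 1.71 CPM in remaining cells, and Grik2, Grik4 and Grin2a at most 15.5 CPM in selected cells. In KLF2 replicates 1 and 2 alone, Grik4 was at 2.90 and 0.54 and Grik2 at 1.26 and 2.4996.

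Of 13 genes of the sarcoglycan and dystrophin complex, 5 were higher and 3 lower (median 0.61; 7 and 0 with total UMIs as the scale). Sgcz, a sarcoglycan, had 6.33 and 2.97 CPM in selected cells, against 0.666 and 0.912 CPM in remaining cells (2.61 and 1.15 on the log2 scale by library), and Dtna, dystrobrevin alpha, had 110 and 126 against 17.4 and 26.7 CPM (2.05 ± 0.16). Sntb1, a syntrophin, and Utrn, utrophin, rose by 1.60 and 1.46. Of 9 navigators and microtubule genes, 4 were higher and 2 lower. Nav2 had 618 and 722 CPM in selected cells, against 134 and 160 CPM in remaining cells (1.81 ± 0.12, edgeR adjusted p = 2.1e-06), and the kinesin Kif5c rose by 1.77. The neuronal tubulin Tubb3, with 21.5 and 6.54 CPM in selected cells against 37.2 and 16.3 CPM in remaining cells, and the neuronal stathmin Stmn2 were the 2 that fell, and both are short beside the other members named.

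Of 35 tested on a list of very long genes with no tie to the 8, 25 were higher and none lower (median 1.37), near the share of all genes over 200 kb. Among them were Csmd1, Magi1 and the nuclear receptor Rora, with 697 and 675 CPM in selected cells against 113 and 119 CPM in remaining cells (2.18 ± 0.12, edgeR adjusted p = 4.1e-07). Against Malat1-rich remaining cells, 4 of the 35 were higher and 10 lower, beside 18.5% and 17.8% of genes over 200 kb. Over the 10 sums of 5 classes and 2 libraries, the genes most like the 8-gene sum were Ube2w, Fat3, Sox6, Aopep and Gas7 (Pearson r of log2 CPM 0.990 to 0.994 among 5122 genes). Those 10 sums share libraries and cell classes, and the 8 genes themselves chose the selected cells. Together they had 6787 and 6850 CPM in selected cells, against 922 and 970 CPM in the Car3 class, the next highest. The selected cells therefore largely set r, which favours any gene high in them and is a description. It was taken over 5122 genes, fewer than the 15289 tested. Ube2w, a ubiquitin-conjugating enzyme, spans only 78.7 kb and had 64.4 and 67.8 CPM in selected cells, against 35.3 and 35.8 CPM in remaining cells.

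Of 9 tested nuclear RNAs, 6 were higher and none lower (median 1.502), beside 23.0% and 23.6% of all genes tested. Against Malat1-rich remaining cells 1 of 8 was higher and 3 lower (median -0.28), beside 9.62% and 10.8% of all genes. Malat1 itself is on this list, and the Malat1-rich cells were chosen by it, so its part in the second count was fixed by that choice. Malat1 had 17182 and 16051 CPM in selected cells, against 4323 and 5827 CPM in remaining cells (1.34 ± 0.13, edgeR adjusted p = 1.5e-05). Neat1, the paraspeckle RNA, had 1205 and 1373 CPM in selected cells, against 196 and 318 CPM in remaining cells (1.98 ± 0.14, edgeR adjusted p = 2.9e-06), and its difference from Malat1-rich remaining cells was -0.24 (edgeR adjusted p = 0.24). Airn and Kcnq1ot1, RNAs of imprinted loci, rose by 2.28 and 2.05, and Mir99ahg, a microRNA host transcript, by 1.84. Of 7 genes that overlap rRNA or usually move with it, 2 were lower, Gm42418 by -0.36 and AY036118 by -0.37, and with total UMIs as the scale their values were 0.024 and 0.017. In KLF2 replicate 1 alone they were -0.12 and -0.17, and in KLF2 replicate 2 alone -0.62 and -0.57. Of 12 tested mitochondrially encoded genes, 2 were lower against all remaining cells (median -0.30, and 0.08 with total UMIs as the scale) and 12 against the Malat1-rich ones.

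Most neuron markers did not pass, and of all genes tested 23.0% were higher and 23.6% lower. Of 11 tested neuron markers, 2 were higher and none lower: Syt1, a synaptotagmin of 513 kb, with 476 and 496 CPM in selected cells against 71.3 and 76.3 CPM in remaining cells (2.33 ± 0.15, edgeR adjusted p = 1.1e-06), and Snap25, with 9.85 and 0.891 CPM against 2.69 and 0.206 CPM (1.54 ± 0.51, edgeR adjusted p = 0.031). Snap25 turned to -2.87 with a sum of 40 as the threshold (edgeR adjusted p = 0.048) and to -1.70 against Malat1-rich remaining cells (edgeR adjusted p = 0.035). Slc17a6 had no UMI in selected cells, and Rbfox3, the nuclear neuronal marker NeuN, had 3.17 and 1.78 CPM against 0.373 and 0.765 CPM, a difference that did not pass (edgeR adjusted p = 0.099). The 16 neuron markers summed to 561 and 558 CPM in selected cells, most of it Syt1, against 145 and 135 CPM in remaining cells. Of 4 tested glial markers, 2 were lower, S100b and Ngfr. S100b had 0.704 CPM in selected cells against 21.1 CPM in remaining cells of KLF2 replicate 1, and 1.19 against 0.648 CPM in KLF2 replicate 2, so its fall rests on the first library. Cdh19 and Foxd3 had no UMI in selected cells.

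Markers of liver and stromal cells were mostly lower or did not pass. These counts, and those of the marker lists after them, are read beside the 23.6% of all genes tested that were lower. Of genes of 10 kb or less, 46.5% were lower. Of 11 hepatocyte markers 6 were lower and none higher, and the 14 on the list summed to 38.0 and 44.3 CPM in selected cells, against 85.1 and 107 CPM in remaining cells, and Alb, the main plasma protein gene of hepatocytes, was low in both (3.52 and 3.57 against 7.27 and 16.1 CPM). Serpina1a, Apoa1 and Fabp1 were other members that fell, and none of these 4 genes had more than 12 UMIs in the selected cells of a library. By library Alb was at -1.35 and -2.51. Of 10 biliary markers, 6 were lower and none higher, among them Krt18 (47.8 and 147 against 129 and 338 CPM), Krt8, Epcam and the progenitor factor Sox9. They summed to 293 and 707 CPM in selected cells and 550 and 1271 CPM in remaining cells, and the rule had already removed cells high in Krt7 and Krt19.

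Of 13 mesenchymal markers, 5 were lower, among them Col1a1 (197 and 47.5 against 223 and 166 CPM), Dcn, Lum and Lrat, and the list summed to 473 and 211 CPM in selected cells, against 612 and 468 CPM in remaining cells. By library Col1a1 was at -0.53 and -2.22 and Lum at -0.63 and -2.26. Endothelial markers summed to 33.4 and 20.5 against 28.2 and 35.7 CPM, T and NK markers to 9.499 and 13.4 against 14.8 and 38.7 CPM, and B-cell markers to 34.1 and 21.1 against 30.4 and 24.8 CPM. In these 3 lists Egfl7, Nkg7, Cd3d, Trbc2 and Cd79a were lower and the long gene Ebf1 was higher (0.77 ± 0.25, edgeR adjusted p = 0.024). Egfl7 was at -0.68 and -2.67 by library, and Nkg7 and Cd3d had at most 4 UMIs in the selected cells of a library. Myeloid markers summed to 94.3 and 185 against 142 and 278 CPM, with Tyrobp, Fcer1g and Lyz2 lower (list median -0.37, and 0.02 with total UMIs as the scale). Neutrophil markers summed to 25.7 and 75.2 against 38.8 and 190 CPM, and none of the 4 tested passed, with S100a9 at an edgeR adjusted p of 0.062 and S100a8 at 0.40. Erythroid markers summed to 10.9 and 17.5 against 9.86 and 140 CPM, and the 4 globin genes that fell (Hba-a1, Hba-a2, Hbb-bs and Hbb-bt) did so mainly in KLF2 replicate 2, at -4.08 to -3.05 on the log2 scale, and were at -0.81 to 0.071 in KLF2 replicate 1. The part of these low-level transcripts in the results was not tested.

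The genes carried by the plasmids were lower in selected than in remaining cells, where plasmid and endogenous transcripts of a gene cannot be told apart. Among all genes tested, 23.6% were lower. Among those of 10 kb or less in the high part of mean CPM, 86.2% were lower (median -1.06). Whether the plasmid genes differ from genes of like length and level was not tested. Klf2 had 175 and 201 CPM in selected cells, against 330 and 370 CPM in remaining cells (-1.29 ± 0.15, edgeR adjusted p = 4.4e-05). Akt1 had 807 and 472 CPM in selected cells, against 1260.5 and 680 CPM in remaining cells (-0.97 ± 0.12, edgeR adjusted p = 5.6e-05). Myc had 455 and 371 CPM in selected cells, against 670 and 456 CPM in remaining cells (-0.81 ± 0.11, edgeR adjusted p = 0.00011). The direction against Malat1-rich remaining cells was the opposite, with Klf2 higher by 0.51 (edgeR adjusted p = 0.031), Akt1 by 0.64 (edgeR adjusted p = 0.0089) and Myc by 0.52 (edgeR adjusted p = 0.016).

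Of 9 genes known from these libraries to mark KLF2 tumours, 2 were higher and 3 lower, beside 23.0% and 23.6% of all genes tested. Their median was -0.18, and 0.20 with total UMIs as the scale. Their choice from the same libraries makes them no independent evidence. Lgr5, a stem-cell receptor of the Wnt pathway, had 205 and 151 CPM in selected cells, against 54.8 and 51.0 CPM in remaining cells (1.36 ± 0.23, edgeR adjusted p = 0.00058), and Prox1, a hepatobiliary transcription factor, rose by 0.78 (edgeR adjusted p = 0.0099). Bex1 fell by 1.43 with Defa21 and Defa22, while Il31ra (691 and 598 against 490 and 648 CPM) and Sox2 (97.8 and 56.5 against 85.5 and 67.1 CPM) did not pass.

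Among 13 Wnt pathway targets, 5 were higher and 2 lower (median 0.21), beside 23.0% and 23.6% of all genes tested. Znrf3, a ubiquitin ligase that removes Wnt receptors, had 692 and 724 CPM in selected cells, against 106 and 144 CPM in remaining cells (2.13 ± 0.19, edgeR adjusted p = 6.9e-06). Lef1, a Wnt transcription factor, had 488 and 360 CPM in selected cells, against 121 and 117 CPM in remaining cells (1.44 ± 0.14, edgeR adjusted p = 1.5e-05). Rnf43, the relative of Znrf3, rose by 1.15 and Axin2, a feedback inhibitor, by 0.38 (edgeR adjusted p = 0.019). Sp5, a short Wnt-induced transcription factor gene, fell by 1.09. Against Malat1-rich remaining cells 7 of 12 were higher and 2 lower (median 0.58), beside 9.62% and 10.8% of all genes tested there. Znrf3 was higher there by 1.07, Lef1 by 0.71 and Lgr5 by 0.88.

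Most proliferation genes did not pass. Of 18 S phase and mitosis genes, Mki67 was higher and 4 were lower (median -0.11, and 0.28 with 2 higher and 1 lower when total UMIs set the scale). Among all genes tested, 23.0% were higher and 23.6% lower. Mki67, a marker of cycling cells, had 146 and 96.6 CPM in selected cells, against 55.2 and 48.1 CPM in remaining cells (0.84 ± 0.30, edgeR adjusted p = 0.037). Pcna, the DNA polymerase clamp, had 56.6 and 41.3 CPM in selected cells, against 73.1 and 55.4 CPM in remaining cells (-0.78 ± 0.16, edgeR adjusted p = 0.0016), and Tyms and Mcm2, genes of nucleotide supply and replication licensing, fell by 0.92 and 0.87. Against Malat1-rich remaining cells 7 of 18 were higher and none lower (median 1.16), beside 9.62% and 10.8% of all genes tested there. Mki67 was higher there by 1.45 (edgeR adjusted p = 0.028).

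Stress genes were mostly lower, and so were short genes of high level as a whole. Of all genes tested 23.6% were lower, and of those of 10 kb or less in the high part of mean CPM 960 of 1114 (86.2%, median -1.06). Whether the stress lists differ from genes of like length and level was not tested. Of 15 AP-1 and immediate early genes, 12 were lower and none higher (median -1.08), among them Fos (478 and 519 CPM in selected cells, against 983 and 1253 CPM in remaining cells), Ier2, Ier3 and Zfp36 at -1.82 to -1.54 (Ier3 at -2.48 and -1.44 by library). Against Malat1-rich remaining cells 8 of the 15 were lower and none higher, beside 10.8% and 9.62% of all genes tested there. Of 12 heat shock chaperones, 11 were lower and 1 higher (median -1.07), among them Hspb1 (836 and 731 against 1909 and 1816.5 CPM), Dnajb1 and the near-identical pair Hspa1a and Hspa1b. Against Malat1-rich cells 3 were lower and 2 higher. Of 17 hypoxia and glycolysis genes, 11 were lower and none higher (median -1.03). Pgk1, a glycolytic kinase, had 319 and 279 CPM in selected cells, against 715 and 530 CPM in remaining cells, and Aldoa, Adm and Egln3 fell by 1.33, 1.70 and 1.32. Adm and Egln3, hypoxia-induced genes, were also lower against Malat1-rich cells (-1.74 and -2.27), while Pgk1 was higher there by 0.60 (edgeR adjusted p = 0.022).

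The p53, matrix and YAP lists are read beside the 23.0% of all genes tested that were higher and the 23.6% that were lower. Of 14 p53 targets, 2 were higher and 6 lower (median -0.50). Gdf15 had 96.0 and 87.4 CPM in selected cells, against 207 and 226 CPM in remaining cells (-1.62 ± 0.14, edgeR adjusted p = 6.2e-06), Btg2 and Phlda3 fell by 1.34 and 1.33, and the longer Sesn1 rose by 1.36. Of 16 collagen and matrix genes, 3 were higher and 7 lower (median -0.54), with the laminin Lama1 higher by 1.59 and Col6a1, Col6a2 and Sparc lower by -1.79 to -1.17. Of 12 YAP and TEAD genes, 1 was higher, Tead1 itself (231 and 237 CPM in selected cells, against 60.7 and 67.9 CPM in remaining cells), and 2 lower, Ccn1 and Ajuba (Ajuba at -1.45 and -0.66 by library).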

How the data were processed

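Each deposited matrix gives the UMI count of every gene in every cell barcode, as whole numbers without normalisation by the authors. PISA v1.0 wrote the matrices, per the file headers, and the build was GRCm38, per the submitters' processing notes. Aligner, intron, strand and doublet handling and cell calling: not given in the sources used here. The 3 matrices held 95374838 UMIs (KLF2 replicate 1), 125458473 (KLF2 replicate 2) and 45594544 (Vector replicate 2) in 6282, 11240 and 12852 barcodes. Barcode names carry a running number of each library and no base sequence, and the 550 names found in both KLF2 libraries are not evidence of shared cells.

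A cell was kept with 300 or more genes and no more than 25% of its UMIs mitochondrial. No doublet caller was run, and leaving out the 5% of cells with the most UMIs was an alternative. UMIs were summed per KLF2 library over 5 classes: selected cells, cells past the Car3, keratin or Ibsp threshold (cells past several were left out), and remaining cells; all had 0 UMIs of Ptprc, Cdh5 and C1qa. Sums of selected cells held 2842429 and 3365211 UMIs. The 10 sums were fitted with edgeR 4.0.16 (TMM, filterByExpr, quasi-likelihood F test, library as block, since both classes of a library come from 1 mouse), with Benjamini-Hochberg adjustment over 15304 genes. Genes of the rule stayed in the fit and out of all counts. The fit and its script were checked on simulated data. Gene spans come from GENCODE M21 (GRCm38), without a match for 175 genes tested. Named genes were the 12 highest and 12 lowest log2 fold changes with an adjusted p under 0.05, a mean of 30 CPM or more and a change of 2-fold or more the same way in each library (predicted, Rik, mitochondrial and ribosomal protein genes left out), and up to 4 members per list (2 where none passed). Other genes were named after their values were seen. The members, lists and rules were chosen with earlier results of these data known. Each KLF2 library is a mouse of its own and a block in the fit, which removes level differences between the 2 mice. The p-values rest on how class differences vary between these mice, pooled over all 5 classes and not over selected and remaining cells alone. Intervals and floors (3 counts) cover counting error only. Alternatives were DESeq2 1.42.0, other scaling, filters, thresholds and comparison cells.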

Additional observations from a re-analysis of the deposited data

How the results depend on the processing

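The gene counts stayed within 1.5 times under DESeq2 (3218 higher and 3086 lower), RLE factors (3701 and 3463), no filter on low counts (2742 and 4992), stricter cell filters, the other sums of the rule and totals without Malat1, rRNA and mitochondrial genes. Without the replicate block they were 2493 and 2465, all of them calls of the blocked fit, and 43 of the 130 named genes past the test no longer passed. The counts moved to 5409 and 2022 with no scaling factor, to 1772 and 1698 with cells thinned to 1000 UMIs, where 8457 genes were tested, and to 1370 and 1533 against Malat1-rich remaining cells. The number of selected cells was 648 with a sum of 10, 218 with a sum of 40 and 170 after thinning in KLF2 replicate 1, against 384, and 352 with 6 of 8 genes and 288 after thinning in KLF2 replicate 2, against 548. Leaving out a library left the log2 ratio of the other mouse, with no test, and gave S100b values of -4.88 to 0.38 and Hbb-bs values of -3.24 to 0.071, positive for S100b without KLF2 replicate 1 and for Hbb-bs without KLF2 replicate 2. With no scaling factor Gm42418 (0.024) and AY036118 (0.017) changed sign without passing (edgeR adjusted p = 0.87 for both). With a sum of 40 Snap25 reversed (-2.87, edgeR adjusted p = 0.048). Removing remaining cells with haemoglobin or a UMI of Cd3e, Cd79a, Lyz2, Pecam1 or Col1a1 turned Cd79a (6.37), Col1a1 (11.87) and Lyz2 (10.88), by its own construction. Col6a2 (0.31) and Lum (0.14) also changed sign, without passing (edgeR adjusted p = 0.47 and 0.87), and the cause was not tested.

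Against Malat1-rich remaining cells 21 of 129 named genes changed sign, and the cause was not tested. Those that turned higher and passed (edgeR adjusted p under 0.05) were Akt1 (0.64), Atp5o (0.58), Bex1 (0.73), Klf2 (0.51), Myc (0.52) and Pgk1 (0.60). Those that turned lower and passed were Adgrl3 (-1.02) and Snap25 (-1.70). The rest changed sign without passing. Positive values were those of Aldoa (0.21), Bri3 (0.053), Lum (0.092), Mcm2 (0.68), Pcna (0.44), Phlda3 (0.52), Trbc2 (0.57) and Tyms (0.61). Negative values were those of Ebf1 (-0.16), Mir99ahg (-0.27), Neat1 (-0.24), Nrxn3 (-0.10) and Sntb1 (-0.14). Selected cells are few and their sums small, so genes at a few CPM rest on under 20 UMIs per library.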
